A study of Homo sapiens with 14 samples.

Results

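Noncoding RNA genes make transcripts that are not translated. Most of them are long noncoding RNAs, and some carry small nucleolar RNAs (snoRNAs, guides for the chemical modification of ribosomal RNA) or microRNAs in their transcripts. H3K4me2, dimethylation of lysine 4 of histone H3, marks the starts of active and poised genes and distal regulatory elements. It is written by the MLL and SET1 enzyme complexes, which share the subunit WDR5, and starts in CpG-rich sequence are known as preferred sites of those complexes.

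The regions described here were those within 1 kb of either end of a RefSeq gene annotated as lncRNA or ncRNA. They overlapped no protein-coding gene, lay more than 2 kb and at most 100 kb from the nearest end of one, and were under 10000 bp long. This rule used position and length only and found 1493 of the 54942 regions of the deposited table. The table counted H3K4me2 ChIP-seq reads in the triple-negative breast cancer cell line MDA-MB-231 over 1 set of regions in 6 libraries. Of these libraries 3 came from cells given the solvent DMSO and 3 from cells given OICR-9429, a small molecule that binds WDR5 and blocks its interaction with MLL proteins. Treatment lasted 24 to 96 hours, with no time or dose given per library. Chromatin of Drosophila was added at 5% as a spike-in, but its factors were not used here, so all values are relative to the other regions and a general gain or loss would not show. The labels number the 3 libraries of each group as biological replicates and say no more on the cultures, so p-values measure the spread between these libraries. Totals ran from 16483098 to 23509413 counts per library. DMSO replicate 3 stood nearer to the OICR-9429 libraries than the other DMSO libraries did: protein-coding ends held 51.6% of its counts, against 48.3% and 46.6% in DMSO replicates 1 and 2 and 52.7% to 56.8% with OICR-9429. Results that rest on 1 library are given with and without it. As a check of the line, the ends of the mesenchymal genes VIM, ZEB1, CD44 and AXL held regions of 62.4 to 144 normalised CPM with DMSO (CPM on the library size after TMM scaling, edgeR's default correction for library composition), whereas ESR1, the oestrogen receptor gene, had none at its ends. Not all luminal markers were low, since FOXA1 stood at 76.2, GATA3 at 29.7 and PGR at 11.7.

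The 1493 regions lay at 1406 different genes, counting for each region the gene whose end was nearest its centre. Of these regions 1491 were at genes of the lncRNA class and 2 at ncRNA genes. Their median length was 1775 bp, and their median distance to the nearest protein-coding end was 20125 bp. The end itself was overlapped by 979 regions, and 130 touched ends of several noncoding genes. Where RefSeq gave a start and strand, 622 regions lay at the start and 285 at the 3′ end. Another 153 reached both ends, whether or not a strand was listed, and for 433 the direction was not given in the table. A total of 518 regions covered a whole listed promoter window, the 250 bases before a start and the 50 after it. Uncharacterised genes with LOC names held 932 of the regions, genes with LINC names 327, antisense transcripts 92, divergent transcripts 24, microRNA hosts 14, snoRNA hosts 10 and other names 94.

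The sequences below are the promoter windows of 6 regions, those with the largest absolute change among the named falls and rises that covered one, shown because rises were more frequent at CpG-rich starts, as described below. They are from RefSeq (GRCh38.p14, the build of hg38), run 5′ to 3′ on the gene's strand, and have CpG dinucleotides in capitals. The first belongs to a region that fell with OICR-9429 and the other 5 to regions that rose.
LOC124909371, chr3:42473632-42473931, minus strand: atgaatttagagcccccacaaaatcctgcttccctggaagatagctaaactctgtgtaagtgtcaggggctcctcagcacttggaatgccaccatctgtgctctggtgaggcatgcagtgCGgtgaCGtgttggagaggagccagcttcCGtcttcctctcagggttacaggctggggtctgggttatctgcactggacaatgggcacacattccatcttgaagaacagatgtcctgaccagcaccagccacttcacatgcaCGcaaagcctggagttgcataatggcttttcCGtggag
DANCR, chr4:52712144-52712443, plus strand: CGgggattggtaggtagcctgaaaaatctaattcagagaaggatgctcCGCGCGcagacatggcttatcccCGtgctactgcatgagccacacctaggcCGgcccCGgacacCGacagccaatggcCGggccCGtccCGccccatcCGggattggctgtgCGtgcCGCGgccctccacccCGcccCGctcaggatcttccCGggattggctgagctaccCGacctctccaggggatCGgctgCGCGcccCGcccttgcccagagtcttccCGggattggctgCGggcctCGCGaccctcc
ARHGEF2-AS1, chr1:155991124-155991423, plus strand: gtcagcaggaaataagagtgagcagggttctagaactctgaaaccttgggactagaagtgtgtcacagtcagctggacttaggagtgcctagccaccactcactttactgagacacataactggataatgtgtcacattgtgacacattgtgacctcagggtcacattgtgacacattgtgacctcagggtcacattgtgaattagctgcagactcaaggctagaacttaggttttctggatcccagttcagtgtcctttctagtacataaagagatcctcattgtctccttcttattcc
LUNAR1, chr15:99014454-99014753, plus strand: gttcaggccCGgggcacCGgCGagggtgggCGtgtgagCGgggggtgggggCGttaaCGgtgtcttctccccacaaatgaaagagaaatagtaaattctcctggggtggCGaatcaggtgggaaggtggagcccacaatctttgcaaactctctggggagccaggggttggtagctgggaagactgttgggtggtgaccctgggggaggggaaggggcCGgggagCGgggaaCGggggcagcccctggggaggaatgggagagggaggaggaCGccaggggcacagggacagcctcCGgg
MIR193BHG, chr16:14301131-14301430, plus strand: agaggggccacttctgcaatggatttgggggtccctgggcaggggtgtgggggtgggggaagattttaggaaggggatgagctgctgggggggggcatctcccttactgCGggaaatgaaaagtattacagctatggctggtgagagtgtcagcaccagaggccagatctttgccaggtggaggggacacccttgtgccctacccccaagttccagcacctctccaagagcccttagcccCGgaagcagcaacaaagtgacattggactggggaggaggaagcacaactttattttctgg
CERS3-AS1, chr15:100372689-100372988, plus strand: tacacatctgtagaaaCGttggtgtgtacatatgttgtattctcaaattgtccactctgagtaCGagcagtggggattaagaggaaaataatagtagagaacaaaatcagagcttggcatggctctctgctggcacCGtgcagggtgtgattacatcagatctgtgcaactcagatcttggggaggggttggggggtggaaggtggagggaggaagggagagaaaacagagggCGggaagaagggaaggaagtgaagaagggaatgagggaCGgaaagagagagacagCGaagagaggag
DANCR had 27 CpG dinucleotides and 67.7% G+C in this window, ARHGEF2-AS1 had 0 CpG and 45.0% G+C, and LOC124909371 had 5 CpG and 53% G+C. Of the 6, DANCR alone counted as CpG-rich, defined here as over 50% G+C and an observed-to-expected CpG ratio over 0.6. Large rises therefore also occurred at CpG-poor starts, and the difference described below is one of proportions.

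Among the microRNAs carried by these genes, the following are shown because they come from pairs of hosts with related products. Of these pairs, MIR193BHG and MIR365BHG had changes of opposite sign, as described below. Seeds (bases 2 to 8) are in capitals, and sequences are from RefSeq.
hsa-miR-193b-3p (from MIR193BHG): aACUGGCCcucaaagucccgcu
hsa-miR-365a-3p (from MIR193BHG): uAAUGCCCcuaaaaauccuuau
hsa-miR-365b-3p (from MIR365BHG): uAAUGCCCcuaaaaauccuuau
hsa-miR-17-5p (from MIR17HG): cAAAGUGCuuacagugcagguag
hsa-miR-20a-5p (from MIR17HG): uAAAGUGCuuauagugcagguag
hsa-miR-106a-5p (from MIR106AHG): aAAAGUGCuuacagugcagguag
The 3p arms of miR-365a and miR-365b, from MIR193BHG and MIR365BHG, have 1 sequence between them. MIR17HG and MIR106AHG carry related clusters that share the seed AAAGUGC.

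Across all of these regions, H3K4me2 moved in both directions with OICR-9429 and about as often as across the whole table. Of the 1493 regions 1437 passed the filter on low counts. The other 56 had a mean of at most 9.67 counts, and 32 of them held no count in any library. Of the 1437 tested regions, edgeR's quasi-likelihood test called 172 lower (12.0%) and 232 higher (16.1%) at an adjusted p under 0.05, beside 14.0% and 17.0% of all 51156 tested regions. The groups did not overlap in 299 regions that were lower (20.8%, against 21.5% of all tested) and 364 that were higher (25.3%, against 24.8%). The median log2 fold change was 0.08, against 0.03 for all tested regions. These shares were near the background in both directions, and are no result about these regions in particular.

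The split depended on the scaling and on single libraries. With library totals in place of TMM, which moved the median of all tested regions from 0.03 to -0.17, 318 were lower and 64 higher. With DESeq2 size factors it was 188 and 188, and with loess offsets, which take out any dependence of the fold change on how strong a region is, 126 and 66. The shares lower and higher were 22.1% and 4.45% with library totals (23.4% and 6.45% of all tested regions), 13.1% and 13.1% with DESeq2 size factors (15.2% and 14.0%), and 8.77% and 4.59% with loess offsets (8.69% and 5.40%). Without DMSO replicate 1 the counts were 101 lower and 21 higher, without DMSO replicate 2 100 and 28, and without DMSO replicate 3 157 and 379. Over all tested regions these fits gave 4366 and 1165 of 51642, 4096 and 1104 of 51542, and 7459 and 12192 of 51535. Leaving out OICR-9429 replicate 1, 2 or 3 gave 249 and 122, 103 and 116, and 113 and 157. The counts over all tested regions were then 8234 and 5263 of 51549, 4978 and 4503 of 51427, and 6066 and 6117 of 51596. The large swings were thus seen across the whole table. Under all 4 scalings 80 regions were called lower and 28 higher, a count that was not made over all tested regions. Under both TMM and loess offsets 80 of 1437 were lower and 61 higher, against 3177 and 2034 of all 51156 tested regions.

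The 1493 regions held 2.85%, 2.90% and 2.90% of the counts in DMSO replicates 1 to 3 and 2.81%, 2.80% and 2.80% in OICR-9429 replicates 1 to 3. The share was lower in every OICR-9429 library than in every DMSO library, and the means differed by -0.0828 percentage points. In the same libraries, regions at ends of protein-coding genes held 48.8% ± 2.54 (SD, n = 3) with DMSO and 54.3% ± 2.19 with OICR-9429. Regions within the same distance and length limits that lay in no lncRNA or ncRNA gene held 10.4% ± 0.442 and 9.30% ± 0.332. The noncoding ends thus lay between a class whose share was higher in all OICR-9429 libraries and a class whose share was lower in all of them. These sums are given as a description, with no test.

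With TMM, calls for single regions also placed noncoding ends between those classes. At ends of protein-coding genes 5928 of 12311 regions were higher (48.2%) and 422 lower (3.43%). Their median log2 fold change was 0.36. In no noncoding gene 575 of 8346 were higher (6.89%) and 1338 lower (16.0%), with a median of -0.06. Inside noncoding genes but away from their ends, 106 of 2068 were higher (5.13%) and 358 lower (17.3%), with a median of -0.08. With loess offsets the order of calls was not kept: 66 of 1437 noncoding ends were higher and 126 lower, against 846 and 492 of 12311 protein-coding ends and 421 and 730 of 8346 regions in no noncoding gene. Noncoding ends were also intermediate in strength. Their median was 13.9 normalised CPM over the 6 libraries, against 35.0 at protein-coding ends and 7.78 in no noncoding gene, and per kb of region it was 7.84, 9.13 and 6.82.

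**Figure D1:**
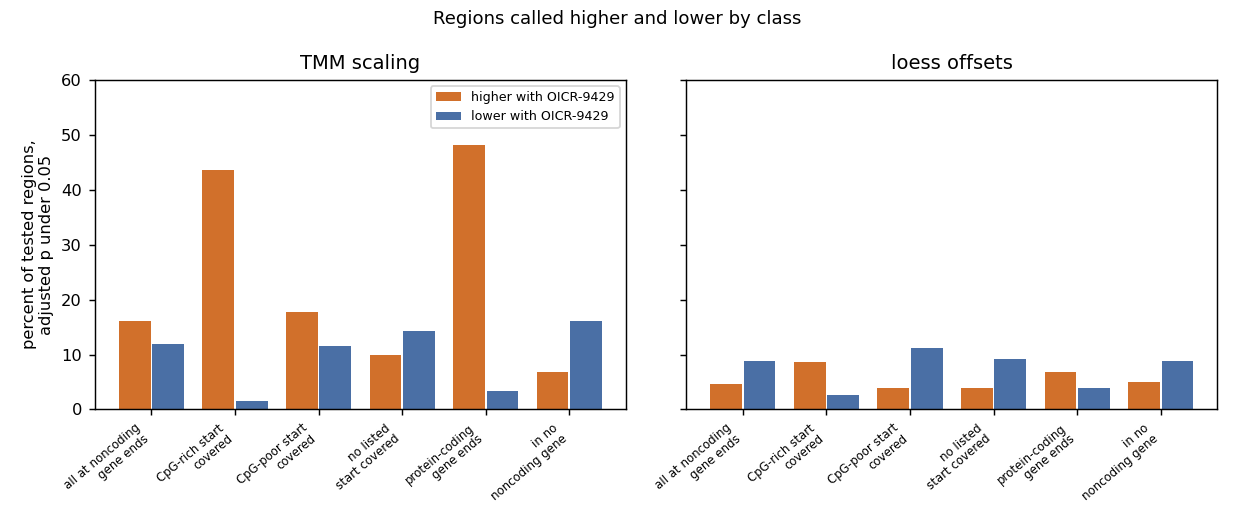
Percent of tested regions called higher (orange) and lower (blue) in OICR-9429 libraries (adjusted p under 0.05), for all regions at noncoding gene ends, for those split by the sequence of the covered start, and for 2 comparison classes, with TMM scaling (left) and loess offsets (right). With TMM 43.6% of CpG-rich noncoding starts and 48.2% of protein-coding ends are higher, and all classes have under 12% in either direction with loess offsets.

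CpG-rich starts held 85 of the 232 rises and 3 of the 172 falls. Of 195 tested regions that covered a CpG-rich start, 85 were higher (43.6%) and 3 lower (1.54%), and the median log2 fold change was 0.38. Of 304 that covered a CpG-poor start, 54 were higher (17.8%) and 35 lower (11.5%), with a median of 0.10. Of 938 that covered no whole listed promoter window of the gene they were named for, 93 were higher (9.91%) and 134 lower (14.3%), with a median of -0.01. Some of these 938 overlapped a start without covering its whole window, as at LINC01537. Another 417 lay at an end of a gene with no listed start, so they could not count as covering one. For the same split at protein-coding genes, 4230 of 7114 regions at CpG-rich starts were higher (59.5%) and 505 of 1146 at CpG-poor starts (44.1%), with medians of 0.40 and 0.34.

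By library, the median over CpG-rich starts was 21.9, 20.2 and 27.5 normalised CPM in DMSO replicates 1 to 3 and 32.6, 28.3 and 28.4 in OICR-9429 replicates 1 to 3. DMSO replicate 3 lay closer to the OICR-9429 libraries than to the other DMSO libraries. Over CpG-poor starts the medians were 19.1, 18.5 and 21.4 against 22.1, 21.5 and 20.8, which overlapped. At 3′ ends they were 9.61, 9.66 and 10.1 against 9.54, 9.90 and 10.0, and these overlapped too.

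**Figure D2:**
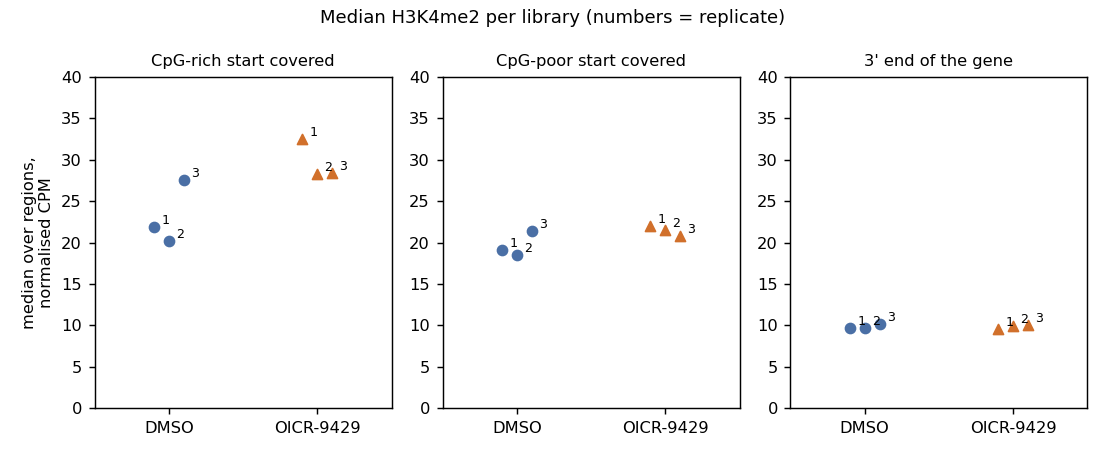
Median H3K4me2 per library in normalised CPM over regions that covered a CpG-rich start, over regions that covered a CpG-poor start and over regions at the 3′ end of a noncoding gene, with DMSO libraries as circles and OICR-9429 libraries as triangles, numbered by replicate. The 3 triangles lie above the 3 circles for CpG-rich starts only, and DMSO replicate 3 at 27.5 comes close to them.

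The count of rises at CpG-rich starts rested on single libraries more than the difference in medians did. It was 3 without DMSO replicate 1, 5 without DMSO replicate 2 and 140 without DMSO replicate 3, and 36, 40 and 58 on leaving out OICR-9429 replicate 1, 2 or 3. With library totals it was 20, and with loess offsets 17, beside 5 lower. At CpG-poor starts loess offsets gave 12 higher and 34 lower. The median of CpG-rich starts exceeded that of CpG-poor starts in all 14 settings run, by 0.19 to 0.33 on the log2 scale, and by 0.28 with TMM. It was above 0 under all 4 scalings, at 0.38, 0.35, 0.18 and 0.15 with TMM, DESeq2 size factors, library totals and loess offsets, while that of CpG-poor starts was 0.10, 0.08, -0.09 and -0.05.

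Fold changes followed region strength. Below the 25th percentile of mean normalised CPM over all tested regions (4.22), 60 of 187 noncoding ends were lower and 0 higher, with a median of -0.42. Between the 50th and 75th percentiles (10.0 to 26.0) 33 of 503 were lower and 93 higher, with a median of 0.14, and above the 90th (47.5) 3 of 116 were lower and 36 higher, with a median of 0.23. Of all tested regions below the 25th percentile 3267 of 12789 were lower and 266 higher, with a median of -0.32. Between the 50th and 75th 14.1% of all tested regions were higher, against 18.5% of noncoding ends. Above the 90th 2825 of 5116 were higher (55.2%, median 0.37), against 31.0% of noncoding ends. Protein-coding ends, which had no length limit, made up 3762 of those 5116. Regions in no noncoding gene, under the same limits, were nearer to noncoding ends there, with 27.4% higher and a median of 0.21. Between the 50th and 75th percentiles 9.27% of that class were higher. The CpG difference was present at like strength. Between the 50th and 75th percentiles the median was 0.37 over 79 CpG-rich starts, 0.11 over 122 CpG-poor starts and 0.10 over 302 regions that covered no whole listed window. Between the 75th and 90th percentiles the medians were 0.41, 0.20 and 0.21, and above the 90th 0.38, 0.19 and 0.21.

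**Figure D3:**
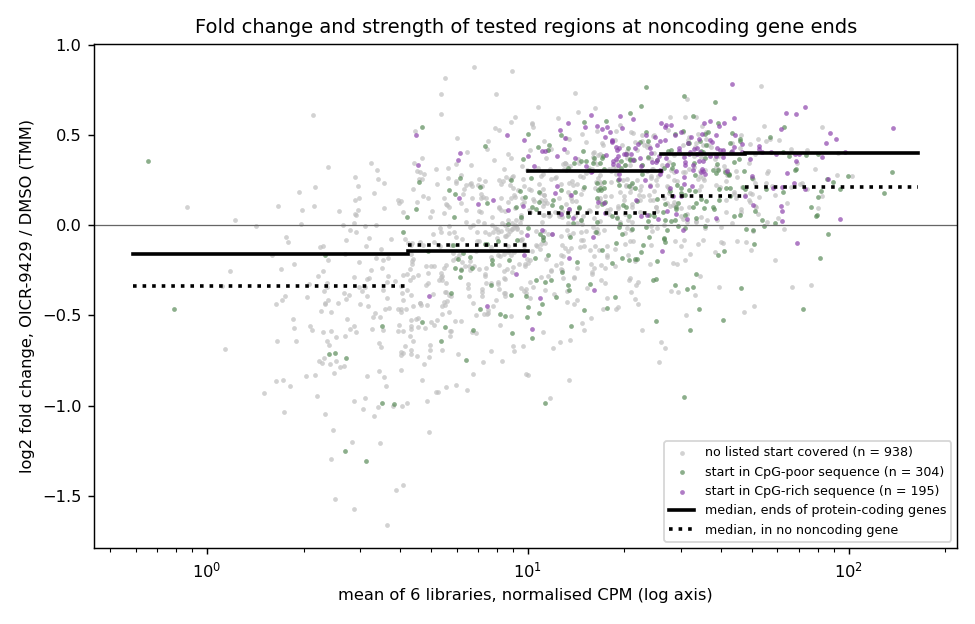
Log2 fold change with TMM scaling against mean normalised CPM (log axis) for the 1437 tested regions at noncoding gene ends, 1 point each. Colours show whether they covered a CpG-rich start, a CpG-poor start or no whole listed promoter window (labelled as no listed start covered). Horizontal segments give the median of 2 comparison classes in 5 strength classes, and between the 75th and 90th percentiles the median of CpG-rich starts is 0.41, beside 0.39 for protein-coding ends and 0.16 for regions in no noncoding gene.

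Finer counts of CpG showed the same order. Among the 499 tested regions with a covered promoter window, those with 0 to 4 CpG dinucleotides numbered 119 and had a median log2 fold change of 0.04, with 15 higher and 21 lower. Those with 5 to 9 numbered 112 and had a median of 0.14 (26 higher, 10 lower), those with 10 to 19 numbered 99 with 0.28 (28 higher, 5 lower), and those with 20 to 50 numbered 169 with 0.37 (70 higher, 2 lower). With loess offsets these medians were -0.12, -0.02, 0.08 and 0.15, so the order was kept and the sign at low CpG was not.

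Short motifs were searched on both strands in these windows and in the 35097 windows of the RefSeq table. The GC box GGGCGG, bound by SP factors, was in 77 of 139 windows of higher regions (55.4%), 8 of 38 of lower regions (21.1%) and 119 of 322 of regions not called (37.0%), against 44.9% of all windows. The ETS motif CCGGAAG was in 19.4%, 2.63% and 9.32% of the same sets, against 10.3%. The AP-1 motif TGANTCA was in 9.35%, 15.8% and 21.1%, and its share over all 499 windows was 17.4%, against 7.71% of all windows in the table. The E-box CACGTG was in 6.47%, 5.26% and 9.32%, against 7.25%. The NRF1 motif, a GC-rich palindrome, was in 7.91%, 0% and 5.90%, against 8.32%. The GC box, ETS, E-box and NRF1 motifs hold a CpG in their letters, and CpG-rich windows made up 61.2% of the higher, 7.89% of the lower and 33.2% of the uncalled sets, against 46.8% of all windows. These sets rest on the TMM calls with all 6 libraries, and no shares are given for other settings. The higher set held 85 CpG-rich and 54 CpG-poor windows. Such rises numbered 3 and 7 without DMSO replicate 1, 5 and 10 without DMSO replicate 2, and 17 and 12 with loess offsets. A match describes letters and is no evidence of binding.

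Starts stood above 3′ ends in level. The median was 17.0 normalised CPM over 600 starts, 9.75 over 277 3′ ends and 25.7 over 143 regions that reached both ends. At starts 133 were higher (22.2%) and 63 lower, at 3′ ends 26 were higher (9.39%) and 42 lower, and in regions reaching both ends 29 were higher and 15 lower, beside 17.0% higher and 14.0% lower of all tested regions. The balance at starts turned under other settings, with 35 higher and 46 lower with loess offsets, 35 and 111 with library totals, 69 and 74 with a mean count of at least 50, 12 and 39 without DMSO replicate 1 and 19 and 39 without DMSO replicate 2. On leaving out DMSO replicate 3 it was 202 and 52, and on leaving out OICR-9429 replicate 1 or 2 it was 59 and 98, and 63 and 37. In each setting where the balance at starts turned, that over all tested regions turned too. It was 2761 higher and 4445 lower with loess offsets, 3301 and 11984 with library totals, and 1165 and 4366 without DMSO replicate 1. At 3′ ends 11 were higher with loess offsets, 9 with library totals, 1 without DMSO replicate 1 and 2 without DMSO replicate 2, and on leaving out DMSO replicate 3 it was 41. Where the region lay at a start but covered no whole promoter window (178 regions), 15 were higher and 33 lower, and the median log2 fold change was -0.14. These regions were weak, at a median of 7.24 normalised CPM. All tested regions between 4.22 and 10.0 normalised CPM had a median log2 fold change of -0.13. With loess offsets 9 of the 178 were higher and 19 lower, with a median of -0.03. For 62 genes a separate region was tested at each end, and the start was stronger in 40 of them, or in 42 per kb. Its log2 fold change was above that of the 3′ end in 34 of the 62, with medians of 0.16 and 0.08, which turned to -0.01 and 0.06 with loess offsets.

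With TMM, values were alike across distances to the nearest protein-coding end. The median log2 fold change was 0.09 at 2 to 10 kb, 0.08 at 10 to 30 kb and 0.08 at 30 to 100 kb, with 17.8%, 16.0% and 15.0% called higher and 11.7%, 11.2% and 12.9% lower. With loess offsets the counts differed more, with 19 of 410 lower at 2 to 10 kb, 52 of 499 at 10 to 30 kb and 55 of 528 at 30 to 100 kb, and 18, 23 and 25 higher. Just outside the rule, 56 regions 1 to 2 kb from a protein-coding end had a median of 0.16, and the 59 regions inside it at 2 to 3 kb had 0.14. At the far limit the 77 regions inside it at 80 to 100 kb had 0.01 and the 63 regions at 100 to 120 kb 0.11. At the length limit the 15 regions inside it of 8 to 10 kb had 0.11 and the 17 regions of 10 to 12 kb 0.17. Length followed strength: of regions under 1 kb 81 of 338 were lower and 13 higher, of those of 3 to 10 kb 22 of 323 were lower and 80 higher. With loess offsets the latter were 58 lower and 12 higher. Of all tested regions 14.0% were lower and 17.0% higher with TMM, and 8.69% and 5.40% with loess offsets. Counts by length were not made over all tested regions, so these cannot be read as particular to noncoding ends.

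The largest falls among regions of at least median strength lay mostly at genes with LOC and LINC names. So did most tested regions at noncoding ends, with 909 at LOC and 311 at LINC names of 1437. A region at the start of LOC124909371 (chr3:42470041-42477408), 11891 bp from VIPR1, had 38.2, 37.3 and 45.8 normalised CPM with DMSO and 21.8, 22 and 18.8 with OICR-9429. Every OICR-9429 value lay under every DMSO value, and the fall was 1.94-fold (log2 fold change -0.95, SE 0.13, edgeR adjusted p = 0.00059). At the 3′ end of LOC105369576 (chr11:130771597-130776289) the values were 30.6, 34.8 and 31.0 against 16.7, 19.5 and 21.0 (log2 fold change -0.76, SE 0.13, adjusted p = 0.00201). LINC02902 (chr7:47650422-47655014), 67836 bp from the focal adhesion gene TNS3, had a region at its start with 32.1, 36.0 and 31.1 against 19.5, 21.9 and 20.6 (log2 fold change -0.68, adjusted p = 0.00279). LINC02075 fell at its 3′ end from 31.7 ± 1.83 to 20.3 ± 2.19 (SD, n = 3 libraries; edgeR adjusted p = 0.00432).

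PDK4-AS1 is named for the neighbouring gene PDK4, which encodes a kinase that inhibits pyruvate dehydrogenase. The region at its 3′ end (chr7:95607934-95610151), 11418 bp from PDK4, had 18.4, 17.9 and 17.6 normalised CPM with DMSO and 10.1, 13.6 and 12.4 with OICR-9429. The DMSO values were close together, and the OICR-9429 values all lay under them (log2 fold change -0.58, SE 0.14, adjusted p = 0.00909). The other falls were at LOC105369382 (-0.58), at LOC124902507 (-0.58) and at LOC124902311 (-0.54), the last 29428 bp from NOTCH1. Of these 8 falls 2 lay at a start, 3 at a 3′ end and 2 spanned both ends, the remaining one having no direction in the table, and none covered a CpG-rich start. With loess offsets the 8 values ran from -1.20 to -0.58 and all stayed called.

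The largest rises lay at starts more often, in 6 of 8, the other 2 having no direction in the table. DANCR, a snoRNA host gene whose long noncoding RNA is known to hold back differentiation of progenitor cells, led them. Its start (chr4:52711443-52715543) had 30.4, 28.9 and 36.5 normalised CPM with DMSO and 58.5, 50.3 and 55.7 with OICR-9429. The groups were far apart, and the rise was 1.72-fold (log2 fold change 0.78, SE 0.13, adjusted p = 0.00152). A second DANCR region at the 3′ end (chr4:52721383-52723530) rose less, from 17.5 ± 2.36 to 24.9 ± 2.69 (log2 fold change 0.51, adjusted p = 0.0158). That call did not hold with loess offsets or library totals, nor when DMSO replicate 1, DMSO replicate 2 or OICR-9429 replicate 1 was left out. LINC03053 (chrX:40011095-40015342), 35904 bp from the corepressor gene BCOR, had 37.7, 34.1 and 46.6 against 77.3, 64.2 and 60.2 (log2 fold change 0.77, adjusted p = 0.00276).

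ARHGEF2-AS1 (chr1:155989138-155991890) had 17.7, 19.2 and 15.0 normalised CPM with DMSO and 29.7, 29.4 and 29.2 with OICR-9429 (log2 fold change 0.77, SE 0.13, adjusted p = 0.00172). It rose without a CpG in its promoter window. LUNAR1, a NOTCH-regulated transcript known from T-cell leukaemia as an enhancer of IGF1R expression, had 22.8, 20.2 and 26.9 against 41.5, 37.6 and 35.7 at its start (chr15:99014088-99016966, log2 fold change 0.72, adjusted p = 0.00328). LINC01537 (0.73), LOC105369250 (0.70), MIR193BHG (0.68) and CERS3-AS1 (0.66) made up the rest. LOC105369250 lies beside FAM90A26, of a family of near-identical copies, so its reads may be shared with other loci and its value is uncertain. The rise at CERS3-AS1 lost its call without DMSO replicate 1 or 2, and the fall at LOC124902311 without those or without OICR-9429 replicate 3. The other 14 of these 16 regions were called the same way in all 13 alternatives.

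**Figure D4:**
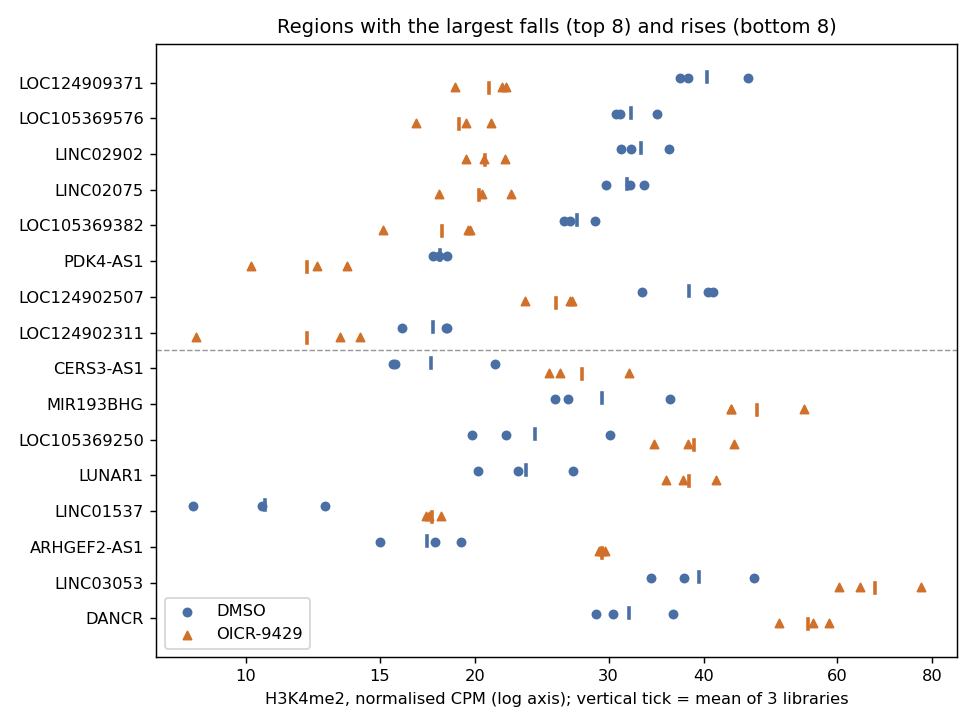
Normalised CPM (log axis) of the 8 regions with the largest falls and the 8 with the largest rises among called, non-overlapping regions of at least median strength, with each DMSO library as a circle, each OICR-9429 library as a triangle and the mean of 3 as a vertical tick. Circles and triangles separate in all 16 rows, as the choice required, and the largest fold among the falls, 1.94, is at LOC124909371.

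The 6 strongest regions were named for their level, and 3 of them were called higher and 0 lower. RENO1, a transcript named for its part in early neurogenesis, spanned both its ends with one region (chr17:81339509-81347365) of 106, 99.3 and 131 normalised CPM with DMSO and 180, 158 and 150 with OICR-9429 (log2 fold change 0.54, adjusted p = 0.00881). The call did not hold with loess offsets or on leaving out DMSO replicate 1 or 2. LOC105372621, near the topoisomerase gene TOP1, had 122, 118 and 127 against 155, 147 and 149 (log2 fold change 0.30, adjusted p = 0.0436), a call that held in 1 of 13 alternatives. SCIRT, described in breast cancer stem-like cells, stood at 90.5 ± 3.87 and 109 ± 4.13 without passing the threshold (adjusted p = 0.0672). LINC02298 (log2 fold change 0.18) and LOC107985434 (0.27) did not pass it either, and SNHG16 is given with the snoRNA hosts.

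SnoRNA host genes carry snoRNAs in their introns, and many have starts like those of ribosomal protein genes. Of 10 tested regions at 8 such genes 9 were higher and 0 lower, at a median log2 fold change of 0.43, against 17.0% of all tested regions and 59.5% of those at CpG-rich protein-coding starts. SNHG16 (chr17:76555657-76563244), 2077 bp from PRCD, had 84.0, 76.1 and 91.9 normalised CPM with DMSO and 123, 100 and 110 with OICR-9429 (log2 fold change 0.41, adjusted p = 0.0225). SNHG5 (chr6:85674820-85681503) had 43.0, 39.2 and 52.4 against 58.2, 57.7 and 64.4 (0.42, adjusted p = 0.0262). SNHG21, SNHG30, SNHG33 and SNHG26 had log2 fold changes of 0.49, 0.44, 0.45 and 0.38. SNHG11 was higher in a region at its 3′ end (0.37, adjusted p = 0.0326), a call kept in 2 of 13 alternatives, while its start stood at 26.8 ± 1.42 and 29.9 ± 4.37 (adjusted p = 0.377). With loess offsets the median fell to 0.11 and the start of DANCR was the 1 region still called. With library totals 2 were called, and without DMSO replicate 1 or 2 there was likewise 1 call. On leaving out OICR-9429 replicate 1, 2 or 3 there were 6, 5 and 4.

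Of 14 tested regions at microRNA host genes 3 were higher (21.4%) and 2 lower (14.3%), near the 17.0% and 14.0% of all tested regions, and the median log2 fold change was 0.20. MIR193BHG carries miR-193b and miR-365a, and at its start (chr16:14301005-14304150) the values were 26.6, 25.5 and 36.1 normalised CPM with DMSO and 54.2, 43.4 and 43.5 with OICR-9429. The groups did not overlap (log2 fold change 0.68, SE 0.15, adjusted p = 0.00692, and 0.39 with loess offsets). MIR365BHG, which carries miR-365b, went the other way at its start (chr17:31570167-31573092), with 28.7, 29.0 and 31.1 against 22.1, 21.3 and 17.9 (log2 fold change -0.53, SE 0.13, adjusted p = 0.01). Both calls held in all 13 alternatives. Since the 3p arms of miR-365a and miR-365b are identical, as shown above, the starts of both genes for this microRNA had changes of opposite sign. Host genes outside the list of known genes, MIR365BHG among them, were added after their values were seen.

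MIR17HG, the host of the growth-promoting miR-17-92 cluster and a MYC target, had a region just upstream of its start (chr13:91346530-91347400) with 6.39, 6.53 and 8.46 normalised CPM against 11.6, 9.79 and 10.3 (log2 fold change 0.57, adjusted p = 0.0159). The call was lost with library totals and without DMSO replicate 1 or 2. The related host MIR106AHG stood at 11.4 ± 2.17 and 14.4 ± 2.31 (adjusted p = 0.119). MIR1915HG rose from 50.1 ± 11.1 to 77.1 ± 8.17 (log2 fold change 0.62, adjusted p = 0.0095), a call lost without DMSO replicate 1 or 2. MIR503HG had a weak region at its 3′ end of 7.25, 7.22 and 6.13 normalised CPM against 4.93, 5.03 and 3.68, called lower (log2 fold change -0.58, adjusted p = 0.0219). That call did not hold with loess offsets or on leaving out DMSO replicate 1, DMSO replicate 2 or OICR-9429 replicate 3. The start of MIR503HG lay in a stronger neighbouring region, named for LINC00629. That region stood at 39.9 ± 3.63 and 49.1 ± 2.20 and was not called (adjusted p = 0.0713).

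The other hosts did not pass the threshold. MIR29B2CHG, host of miR-29 family members, stood at 78.1 ± 1.63 and 81.1 ± 5.46 normalised CPM, and it was called lower with loess offsets (log2 fold change -0.29, adjusted p = 0.0304). MIR155HG, host of the immune microRNA miR-155, had a weak region at its 3′ end of 3.15 ± 0.413 and 2.60 ± 0.476. MIR130AHG, MIR3142HG (host of miR-146a) and MIRLET7A1HG had log2 fold changes of 0.30, 0.26 and 0.31, MIR137HG 0.15, MIR194-2HG -0.26 and MIR202HG -0.52 (adjusted p = 0.0749).

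**Figure D5:**
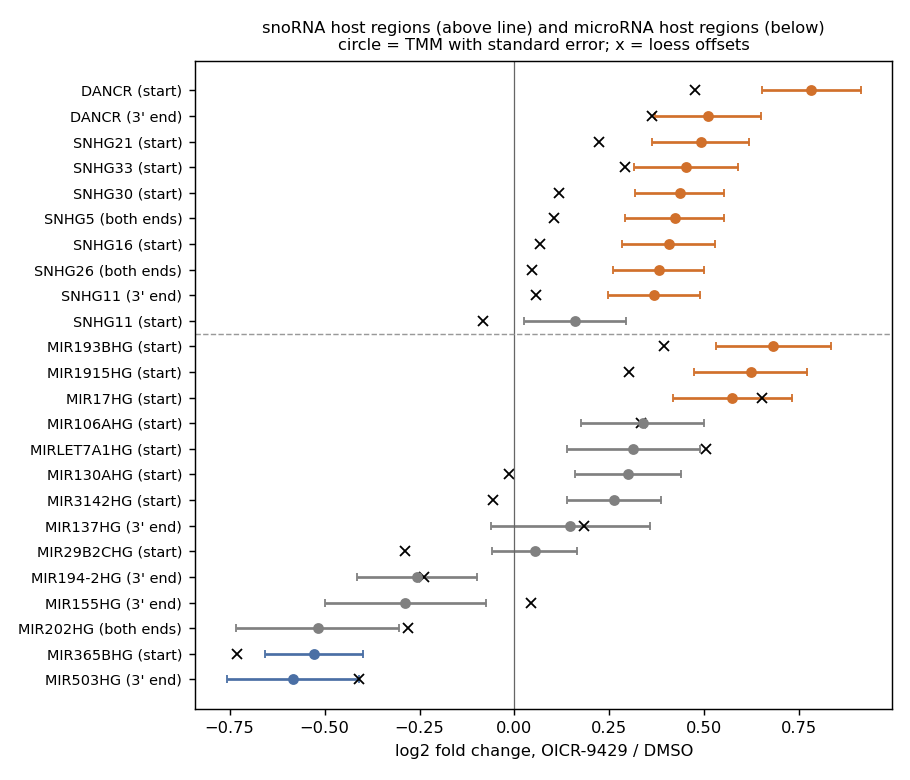
Log2 fold change with standard error (circles, TMM) and with loess offsets (crosses) at 10 regions of snoRNA host genes and 14 of microRNA host genes, with orange for called higher, blue for called lower and grey for not called. SnoRNA hosts lie right of 0 with TMM, MIR193BHG and MIR365BHG lie on opposite sides, and most crosses lie left of their circles.

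A list of 103 well-known noncoding genes was read out whatever their values, and 20 of them had an end at a tested region that met the rule. Regions outside the rule were not searched for the others. Of the 23 regions concerned 9 were higher and 1 lower, where 17.0% and 14.0% of all tested regions were. The list named 17 snoRNA hosts, of which 3 were found, with 4 of 4 regions higher, and 23 microRNA hosts, of which 6 were found, with 2 higher and 1 lower among 7 regions. Both groups are described above, apart from the start of LNCTAM34A, which is antisense to the p53-induced miR-34a and shares its region with MIR34AHG. That region stood at 38 ± 4.82 and 39.0 ± 8.14 normalised CPM (log2 fold change 0.04).

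Of 38 genes tied to cancer or epithelial-mesenchymal transition 7 were found at 8 regions, with 3 higher and 0 lower (17.0% and 14.0% of all tested regions). LUCAT1, a stress-induced transcript, had 52.9, 48.8 and 51.3 normalised CPM with DMSO and 75.7, 69.2 and 78.2 with OICR-9429 at its start (chr5:91310699-91315223, log2 fold change 0.54, SE 0.12, adjusted p = 0.00568), a call lost with loess offsets only. LINC00941 had 69.1, 66.9 and 80.5 against 114, 93.1 and 101 (0.51, adjusted p = 0.00976), and LINC00673 72.2, 70.0 and 87.4 against 110, 100 and 109 (0.47, adjusted p = 0.0119). In all 3 genes the groups did not overlap, and the calls at the last 2 did not hold with loess offsets or on leaving out DMSO replicate 1 or 2. LINC00862 had 2 regions (-0.09 at its start and 0.27 at its 3′ end), and SAMMSON (0.05), LINC00973 (0.19) and LINC02605 (-0.40) did not pass the threshold.

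Of 13 nuclear and housekeeping noncoding RNAs 3 were found and none was called. NORAD, a cytoplasmic transcript that binds Pumilio proteins, was spanned by 1 region (chr20:36043877-36051975) with 61.8, 57.2 and 58.9 normalised CPM with DMSO and 61.4, 64.3 and 65.9 with OICR-9429. Those values overlapped (log2 fold change 0.11, adjusted p = 0.488), although this start was CpG-rich. The 1 tested region under the rule at NEAT1, the scaffold of paraspeckles, was weak and near one end (chr11:65443838-65444675), with 1.56, 1.59 and 1.95 against 1.64, 1.75 and 1.10. MIAT stood at 9.13 ± 1.33 and 8.99 ± 1.78. Of 12 genes of the p53 and stress list 1 was found, LINC00467, in a region shared with LOC107985259 and LOC124904504 (27.8 ± 4.73 and 34.1 ± 2.20, adjusted p = 0.115).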

How the data were processed

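H3K4me2 ChIP-seq reads were counted by the authors over 54942 regions, and the deposited table holds raw counts for 3 DMSO and 3 OICR-9429 libraries. Inputs and untreated libraries were not analysed here. The submitters' processing notes name Bowtie, MACS2, deepTools, featureCounts and DESeq2, with builds hg38 and dm6, and give no order. How the table's regions were made is not given in the sources used here.

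Regions were classified with RefSeq (GRCh38.p14) gene spans, which held 18177 lncRNA, 52 ncRNA and 19974 protein-coding genes. Promoter windows were listed for 11383 of the 18229 noncoding genes, and these entries gave the strand. A region could cover several listed starts, and the covered one nearest its centre was used. All regions passing filterByExpr were fitted with edgeR 4.0.16 (TMM scaling, robust glmQLFit and glmQLFTest, R 4.3.3), with Benjamini-Hochberg adjustment over all of them and a threshold of 0.05. The fit was tested on simulated data with as many rises as falls, no dependence on strength and no deviating library. That test cannot show how the fit behaves under the swings between libraries seen here. Alternatives were other scalings, filters on low counts, DESeq2 1.42.0, a replicate block, each library left out, a stricter threshold of 0.01 and regions overlapping the end itself. Values of single libraries are CPM on the TMM-scaled library size, and ± gives the SD over 3 libraries.

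Named regions were the 8 largest falls and 8 largest rises among called regions whose groups did not overlap and whose mean was at least the median (13.9 normalised CPM), 32 and 181 regions being eligible, the 6 strongest regions, and every region at a gene of the list of known genes. Regions and lists were chosen with earlier results of these data known. The CpG classes, and the naming of all host gene regions, were set after the values were seen.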

Additional observations from a re-analysis of the deposited data

How the results depend on the processing

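The counts of calls and the median over all regions at noncoding ends depended on scaling, filters and single libraries. Against 172 lower and 232 higher, library totals gave 318 and 64 with a median log2 fold change of -0.12, loess offsets gave 66 higher with a median of 0.0039, and a mean count of at least 50 gave 136 higher with a median of -0.0045. No count filter gave a median of 0.0058. Regions overlapping the end itself gave 85 lower, a median of 0.14 and a share difference of -0.0241 percentage points, and an adjusted p under 0.01 gave 58 lower and 38 higher. With each library left out in turn the counts ran from 100 to 249 lower and from 21 to 379 higher, the median from -0.0053 to 0.11 and the share difference from -0.0996 to -0.0740. Over all tested regions the counts ran from 4096 to 8234 lower and from 1104 to 12192 higher. Rises at CpG-rich starts numbered 20 with library totals, 17 with loess offsets and 3 to 140 with a library left out. At CpG-poor starts they numbered 17, 12 and 7 to 83. The cause was not tested.

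Deviations from the group means in same-numbered libraries correlated at -0.157, 0.182 and -0.194. OICR-9429 replicate 1 correlated best with DMSO replicate 3 (0.322). With 3 libraries per group, such correlations cannot show whether libraries were made in pairs. With the replicate block 127 regions were lower and 167 higher, with a median of 0.08, and among named regions the calls at LOC105372621 (adjusted p = 0.0768) and the 3′ end of SNHG11 (0.06) were lost.

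Over 57 named regions and their alternatives, 601 of 739 values kept direction and call, 82 lost a call, 12 gained one and 44 changed sign. With loess offsets the log2 fold change turned to -0.045 at LOC105372621, -0.16 at LINC02298, -0.069 at LOC107985434, -0.070 at SCIRT, -0.26 at LNCTAM34A, -0.29 at MIR29B2CHG, -0.23 at NORAD, -0.014 at LINC00629 and MIR130AHG, -0.083 at the start of SNHG11 and -0.058 at MIR3142HG, and to 0.16 at NEAT1, 0.043 at MIR155HG and 0.063 at MIAT. With library totals it turned to -0.017 at LINC02298, -0.15 at LNCTAM34A, -0.15 at MIR29B2CHG, -0.094 at NORAD, -0.15 at SAMMSON, -0.0081 at LINC00973, -0.054 at MIR137HG and -0.041 at the start of SNHG11. A mean count of at least 50 gave -0.058 at LNCTAM34A, -0.052 at MIR29B2CHG, -7.8e-05 at NORAD and -0.058 at SAMMSON, and no count filter gave -0.027, -0.018 and -0.025 at LNCTAM34A, MIR29B2CHG and SAMMSON. With a library left out the range was -0.023 to 0.32 at LINC02298, -0.17 to 0.19 at LNCTAM34A, -0.068 to 0.099 at MIR29B2CHG, -0.24 to 0.11 at MIAT, -0.065 to 0.12 at SAMMSON, -0.11 to 0.32 at MIR137HG and -0.028 to 0.25 at the start of SNHG11. None of these sign changes was at one of the 16 largest falls and rises. Counts near the filter limit what can be seen, as 56 regions were not tested.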
